A study of Mus musculus with 24 samples.

Results

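The liver of wild-type mice was compared between dusk hours and dawn hours. Dusk was represented by 4 libraries, 2 at ZT08 and 2 at ZT12, and dawn by 4 libraries, 2 at ZT20 and 2 at ZT24, where ZT is zeitgeber time in hours. These 8 libraries are part of 24, of which 12 are wild type, and they were chosen from the labels alone. The wild-type mice carry intact copies of Hlf, Dbp and Tef (Hlf+/+/Dbp+/+/Tef+/+), and the 8 knockout libraries of the same hours, used at the end, lack all of these genes (Hlf-/-/Dbp-/-/Tef-/-). All animals were 12 to 16 weeks old and fed ad libitum (AL), so food was present at dusk as well as at dawn. In each pair of libraries 1 carries the letter I and 1 the letter P, and values below are given in that order. The labels leave out what the letters stand for, the strain, the light schedule, the sex and the exons deleted in the knockout. They also do not state whether the 2 libraries of an hour are 2 animals, and the p-values therefore describe the spread between these libraries, which may be technical.

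The mammalian clock is a feedback loop of transcription. BMAL1 (gene Arntl) pairs with CLOCK or NPAS2 and switches on genes whose promoters hold an E-box, among them those of the PER and CRY proteins, which return to the nucleus and stop BMAL1. A side loop runs through the REV-ERB repressors (Nr1d1, Nr1d2) and the ROR activators, which compete for the ROR element and give the Arntl gene its own rhythm. The PAR bZip factors DBP, TEF and HLF, of which DBP is made under E-box control, bind the D-box, to which the repressor NFIL3 also binds. In mouse liver the loop times the synthesis of bile acids, lipids and glycogen, and feeding, body temperature and hormones set many further transcripts.

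The stretches of 250 bases before the start sites of 5 clock genes are shown because words of known control elements were found in them. Sequences are from RefSeq, build GRCm38.p6, written 5′ to 3′ along the gene's own strand. The words searched, on both strands, were the E-box CACGTG, its variant CACGTT, the D-box TTATGTAA, its variant TTATGCAA, the ROR element, its core TAGGTCA, which the longer ROR element contains after 2 A and any 1 base, and the cyclic AMP response element TGACGTCA. Capitals mark the matches, and each match is a description of the letters and not of binding. In Ciart (chr3:95882229-95882478, minus strand) the capitals mark 3 E-boxes, and in Per3 (chr4:151044666-151044915, minus strand) 2 D-boxes. In Per1 (chr11:69098699-69098948, plus strand, 1 of its 2 windows) they mark an E-box and, nearer the start, the D-box variant. In Cry1 (chr10:85185055-85185304, minus strand) they mark the E-box variant, here read on the other strand, followed by an E-box. In Nfil3 (chr13:52981040-52981289, minus strand) they mark the ROR core on the other strand. None of the words was found in the windows of Dbp, Nr1d2, Arntl, Npas2, Clock and Rora, which says only that these letters are not in these windows.
Ciart: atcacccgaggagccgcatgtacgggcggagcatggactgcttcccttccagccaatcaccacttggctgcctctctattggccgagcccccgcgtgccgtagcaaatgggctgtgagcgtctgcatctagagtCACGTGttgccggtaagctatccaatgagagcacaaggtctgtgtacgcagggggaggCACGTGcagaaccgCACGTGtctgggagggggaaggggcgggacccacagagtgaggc
Per3: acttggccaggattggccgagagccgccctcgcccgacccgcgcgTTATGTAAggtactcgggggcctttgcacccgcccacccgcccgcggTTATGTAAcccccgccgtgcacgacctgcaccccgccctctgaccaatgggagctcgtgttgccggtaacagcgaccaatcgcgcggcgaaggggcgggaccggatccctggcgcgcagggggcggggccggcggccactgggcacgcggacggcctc
Per1: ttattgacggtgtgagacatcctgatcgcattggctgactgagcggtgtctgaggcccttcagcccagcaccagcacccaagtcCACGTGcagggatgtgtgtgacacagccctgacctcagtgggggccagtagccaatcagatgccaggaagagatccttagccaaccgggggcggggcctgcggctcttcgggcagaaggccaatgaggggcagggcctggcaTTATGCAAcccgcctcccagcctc
Cry1: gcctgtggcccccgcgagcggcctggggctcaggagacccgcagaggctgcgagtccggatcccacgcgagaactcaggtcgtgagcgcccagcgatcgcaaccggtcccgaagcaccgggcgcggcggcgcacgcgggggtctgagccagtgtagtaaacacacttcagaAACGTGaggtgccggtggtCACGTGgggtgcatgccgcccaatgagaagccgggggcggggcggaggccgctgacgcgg
Nfil3: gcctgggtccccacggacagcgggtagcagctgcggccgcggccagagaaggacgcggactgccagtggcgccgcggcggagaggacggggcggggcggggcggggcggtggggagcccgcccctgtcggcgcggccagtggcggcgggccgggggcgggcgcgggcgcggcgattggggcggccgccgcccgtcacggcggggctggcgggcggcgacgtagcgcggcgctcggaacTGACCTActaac

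Among all 13528 such windows, which belong to 10562 of the genes tested, the E-box stood in 8.1%, its variant in 4.32%, the D-box in 0.532% and the D-box variant in 0.606%. The ROR element stood in 0.148%, its core in 1.86% and the cyclic AMP response element in 2.39%. The 3 E-boxes of Ciart lie 116, 58 and 44 bases before its start, and the 2 D-boxes of Per3 lie 205 and 158 bases before its start. In Per1 the E-box lies at 166 bases and the D-box variant at 24, in Cry1 the variant E-box at 79 and the E-box at 60, and in Nfil3 the ROR core at 12.

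The 8 libraries held 16317859 to 19288322 counts each. The library of ZT20 set I stood apart: the GC content of a gene went with how far its count departed from the median wild-type library, with r = 0.658 across genes, against −0.44 to 0.183 in the other 7, and it counted long transcripts low (r = −0.296 with log2 length). Its cause was not tested. Results that rest on this library are therefore given with and without it. As a check of the labels, Dbp stood at 0 to 0.114 CPM in the 12 knockout libraries against 0.279 to 56.8 CPM in the 12 wild-type libraries, Tef at 3.54 to 30.1 against 42.4 to 330 CPM, and Hlf at 0.112 to 3.34 against 46.9 to 95.6 CPM. CPM, the usual library-size unit of RNA-seq, are counts over library sizes scaled with TMM. The 12 hepatocyte markers held 89200 to 121000 CPM in sum at dusk and 106000 to 119000 CPM at dawn, and none was at 0 in any library.

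Of 14366 genes tested, 153 rose at dusk (1.07%) and 187 fell (1.3%) at an adjusted p under 0.05 (edgeR quasi-likelihood test, Benjamini-Hochberg adjustment). At an unadjusted p under 0.05 were 2799 genes (19.5%), and DESeq2 called 502 higher (3.49%) and 489 lower (3.4%). In bulk liver, fewer cells of a type and less RNA per cell cannot be told apart. The median size of the 340 changes was 1.34 on the log2 scale, the smallest was 0.63, and 255 were over 1. The 4 dusk libraries all stood above or all stood below the 4 dawn libraries for 291 of the 340. Over all genes tested, 831 (5.78%) had every dusk library above every dawn library and 728 (5.07%) every dusk library below. Within set P alone and within set I alone, 338 of the 340 moved the same way, and the other 2, Kifc1 and Cyp26c1, were not tested in 1 of the sets. The 340 were called on these same libraries, and for the 291 without overlap this sign was fixed. It is therefore a description and no independent support.

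The count of genes depended on single libraries. Without ZT20 set I, 657 genes rose (4.41% of 14900 tested) and 670 fell (4.5%). These 1327 held all 340 (100% of the 340, 25.6% of the 1327). Leaving out ZT20 set P, so that the ZT20 value rested on set I, gave 3401 rises and 2219 falls. The other 6 omissions lowered the counts, to 13 rises and 9 falls without ZT08 set I, 29 and 24 without ZT08 set P, 9 and 8 without ZT12 set I, 69 and 59 without ZT12 set P, 20 and 28 without ZT24 set I, and 47 and 40 without ZT24 set P. Among 93 called genes named by rule, 10 passed in every such fit: Arntl, Ciart, Per3, Upp2, Dbp, Ppp1r3c, Chka, Elovl3, Npas2 and Tubb2a. Each of the others missed the threshold in at least 1 of these fits.

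Among the activators of the clock, Arntl and Npas2 fell at dusk. Arntl, which encodes BMAL1, had 1.95 and 2.04 CPM at ZT08 and 2.97 and 2.85 CPM at ZT12, against 37 and 38.9 CPM at ZT20 and 40.7 and 46.1 CPM at ZT24. The sides were far from overlapping, with means of 2.45 ± 0.534 CPM at dusk and 40.7 ± 3.9 CPM at dawn (SD, n = 4 each), and the log2 change was −4.06 (SE 0.129, edgeR adjusted p = 0.000936). Npas2, the alternative partner of BMAL1, had 2, 0, 0 and 0 reads in the dusk libraries against 182, 179, 291 and 281 in the dawn libraries. Summed, 2 reads at dusk stood against 933 at dawn, a dawn over dusk ratio of 448 with a 95% counting interval of 124 to 3710 (edgeR adjusted p = 0.00613). The interval treats the summed reads as independent draws, so it covers counting error only and leaves out the spread between libraries. The reads also carry no molecular identifiers.

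Clock itself, the main partner of BMAL1, had 17.1, 35, 18.4 and 43.3 CPM at dusk against 4.13, 88.2, 62.2 and 102 CPM at dawn. The library of ZT20 set I was the lowest of all 8, and the other 3 dawn libraries were the highest. The log2 change was −0.89 with all 8 libraries (adjusted p = 0.487) and −1.44 without ZT20 set I (adjusted p = 0.000984), and it was 0.28 without ZT20 set P (adjusted p = 0.172). Rora, a receptor that activates Arntl, showed the same single low value, with 41.1, 80.2, 40.6 and 90.3 CPM at dusk against 7.89, 115, 72.5 and 122 CPM at dawn. Its log2 change was −0.08 with all libraries (adjusted p = 0.952) and −0.60 without ZT20 set I (adjusted p = 0.0209), and it turned to 0.86 without ZT20 set P (adjusted p = 0.00197). Of these activators, Arntl and Npas2 passed with and without that library, and Clock and Rora passed without it and not with all 8 libraries.

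Of the 10 repressors of the loop, 6 rose at dusk and 1 fell, where 1.07% of all genes tested rose and 1.3% fell. Their median log2 change was 2.5 against 0.05 over all genes tested. Per3, a period gene whose promoter is shown above with 2 D-boxes, had 65.1, 64.9, 75.8 and 69.2 CPM at dusk against 9, 6.74, 2.3 and 2.34 CPM at dawn. Its means were 68.7 ± 5.13 CPM at dusk and 5.09 ± 3.33 CPM at dawn (SD, n = 4 each), with a log2 change of 4.02 (SE 0.133, adjusted p = 0.000936). All dusk values lay within a narrow band, while the dawn values were higher at ZT20 than at ZT24. Per1, the period gene that also answers to hormones and feeding, had 36.2, 35.7, 66.3 and 41.8 CPM at dusk against 20.5, 9.03, 2.24 and 2.28 CPM at dawn (log2 change 2.97, SE 0.231, adjusted p = 0.0073). Per2, the third period gene, had 47.3, 51, 65.5 and 67 CPM at dusk against 77.4, 44.3, 27.5 and 14.1 CPM at dawn. Its sides overlapped through ZT20 set I, and its log2 change of 0.76 missed the threshold (adjusted p = 0.155), against 0.85 (adjusted p = 0.0492) without that library.

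Cry1, a cryptochrome, ran opposite to Per1 and Per3. It had 7.96, 8.49, 26.9 and 23.8 CPM at dusk against 104, 67.8, 40.8 and 34.9 CPM at dawn and was the repressor that fell (log2 change −1.95, SE 0.144, adjusted p = 0.00613). Within each side its pairs were also ordered, higher at ZT12 than at ZT08 and higher at ZT20 than at ZT24. Cry2 had 49.2, 40.4, 52.4 and 48.9 CPM at dusk against 63.8, 40.5, 31.5 and 27.8 CPM at dawn, a log2 change of 0.30 (adjusted p = 0.26), which was 0.39 (adjusted p = 0.0478) without ZT20 set I. Ciart, which encodes the repressor CHRONO and carries 3 E-boxes in the stretch shown above, had 23.4, 21.2, 30 and 18.7 CPM at dusk against 1.85, 1.56, 0.969 and 0.724 CPM at dawn. Its sides did not overlap, and the log2 change was 4.28 (SE 0.176, adjusted p = 0.00219).

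Both REV-ERB genes rose at dusk. Nr1d1 had 84.1 and 58.8 CPM at ZT08 and 11.5 and 21.6 CPM at ZT12, against 2.53, 1.08, 2.3 and 7.3 CPM at dawn (log2 change 3.58, SE 0.478, adjusted p = 0.0273). Both ZT12 libraries were already below both ZT08 libraries, a log2 difference of −2.17 that did not pass the test between those hours (adjusted p = 0.622). Nr1d2, its paralog, stayed level between the dusk hours, with 87.4, 168, 78.6 and 154 CPM against 1.36, 12.6, 6.73 and 27.1 CPM at dawn (log2 change 3.86, SE 0.432, adjusted p = 0.0185, and 3.41 without ZT20 set I). Bhlhe41, a helix-loop-helix repressor that competes for E-boxes, had 5.78, 7.74, 1.27 and 3.15 CPM at dusk against 0.616, 1.68, 0.816 and 0.724 CPM at dawn. The sides overlapped at ZT12 set I, and the log2 change was 2.02 (adjusted p = 0.0433). Bhlhe40, its close relative, had a log2 change of 0.51 (adjusted p = 0.195), and 0.69 (adjusted p = 0.0141) without ZT20 set I.

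Among the D-box binders, the activators were high and the repressor was low at dusk. Dbp had 56.8 and 50.3 CPM at ZT08 and 24.1 and 29.8 CPM at ZT12, against 2.22 and 0.722 CPM at ZT20 and 0.459 and 0.279 CPM at ZT24. Its means were 40.2 ± 15.7 CPM at dusk and 0.919 ± 0.885 CPM at dawn (SD, n = 4 each), and its log2 change of 5.74 (SE 0.345, adjusted p = 0.00392) was 6.17 without ZT20 set I. The lowest dusk library (24.1 CPM) stood far above the highest dawn library (2.22 CPM). Tef rose less, with 330, 297, 280 and 301 CPM at dusk against 171, 97.7, 42.4 and 48.4 CPM at dawn, and a log2 change of 1.98 (SE 0.178, adjusted p = 0.0103). Hlf had the shallowest difference, with 89.8, 80, 91.8 and 95.6 CPM at dusk against 59.2, 64, 59.9 and 52.1 CPM at dawn. Its sides did not overlap, but the log2 change of 0.61 missed the threshold (adjusted p = 0.0723), and 0.53 without ZT20 set I passed it (adjusted p = 0.0235). Nfil3 ran the other way, with 8.59, 9.48, 16.3 and 18.9 CPM at dusk against 68.5, 44.3, 43.1 and 55.2 CPM at dawn (log2 change −2.04, SE 0.182, adjusted p = 0.0102). All of its dawn libraries were above every dusk library, as in Arntl, Npas2 and Cry1.

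**Figure D1:**
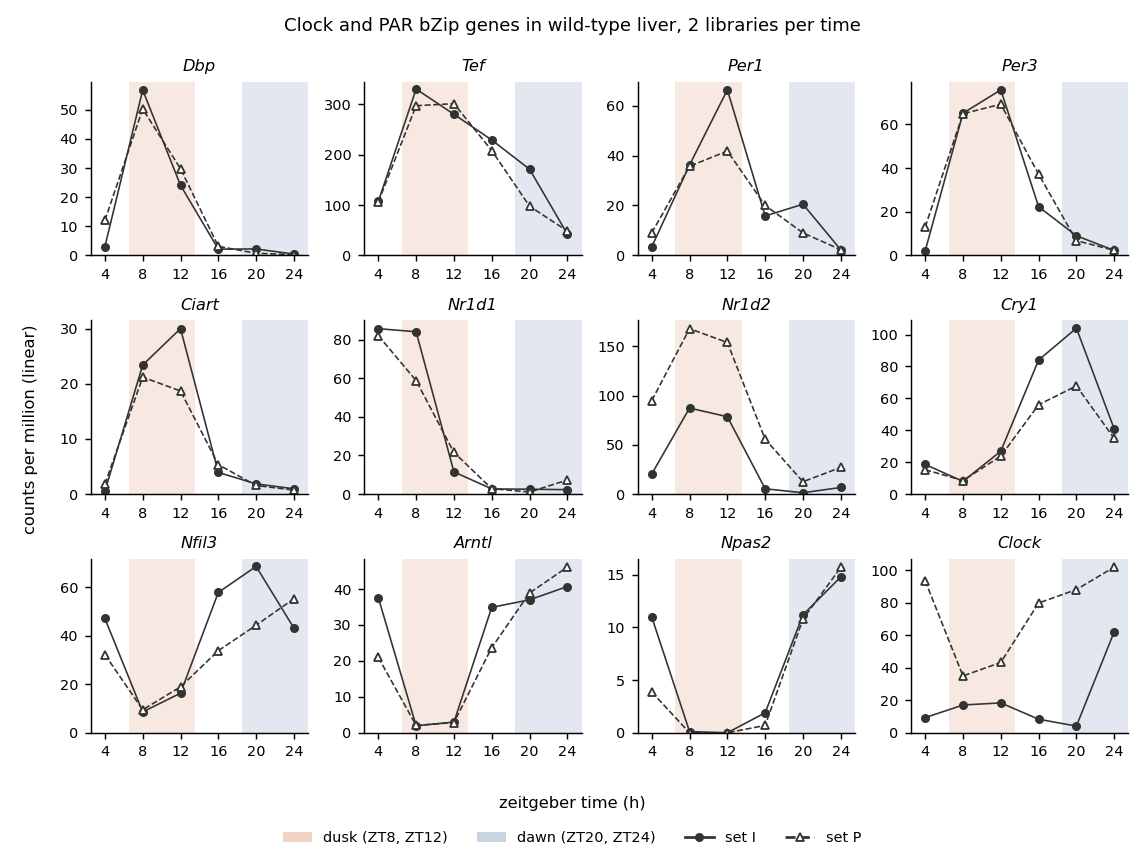
CPM (linear axis from 0) of 12 clock and PAR bZip genes over the 6 zeitgeber times in wild-type liver, with set I as filled circles and set P as open triangles, and the dusk and dawn hours shaded. Dbp is at 24.1 to 56.8 CPM at dusk and at 0.279 to 2.22 CPM at dawn, Arntl at 1.95 to 2.97 CPM at dusk and 37 to 46.1 CPM at dawn, and the value of Clock in ZT20 set I (4.13 CPM) lies far below its partner in set P (88.2 CPM).

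Of 28 listed output genes of the liver clock, 10 rose and 8 fell (12 and 10 without ZT20 set I). The shares over all genes tested were 1.07% and 1.3%, and without ZT20 set I they were 4.41% and 4.5%. Of 11 kinases and ubiquitin ligases that act on clock proteins, 1 rose, and it was Usp2, a deubiquitinase, with 65.9, 51.3, 101 and 67.8 CPM at dusk against 28.6, 11.7, 5.87 and 3.79 CPM at dawn (log2 change 2.91, adjusted p = 0.00392). Casein kinases and F-box proteins of that list did not pass the test.

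The 12 largest rises among genes whose mean level reached 1 in log2 CPM held 9 members of the lists above, which are Dbp, Ciart, Per3, Nr1d2, Nr1d1, Per1, Usp2 and the output genes Upp2 and Rgs16, and 3 others, which are Lpin1, Gpcpd1 and Noct. Upp2, a uridine phosphorylase, had 592, 750, 954 and 974 CPM at dusk against 80.5, 98.9, 63.6 and 115 CPM at dawn (log2 change 3.21, SE 0.162, adjusted p = 0.00251). Lpin1, a phosphatidate phosphatase of triglyceride synthesis that also acts with PPAR-alpha in the nucleus, had 531, 310, 1400 and 553 CPM at dusk against 59.1, 46.8, 55.6 and 56.7 CPM at dawn. Its dawn libraries agreed closely (54.5 ± 5.38 CPM) while its dusk libraries spread widely (697 ± 478 CPM), and the log2 change was 3.48 (SE 0.255, adjusted p = 0.00613). Gpcpd1, which splits glycerophosphocholine, had 267, 324, 432 and 472 CPM at dusk against 4.31, 41.9, 39.1 and 80.6 CPM at dawn. The lowest of these is again ZT20 set I, and the log2 change was 3.59 with it (adjusted p = 0.0441) and 3.004 without it (adjusted p = 0.000172). Rgs16, a regulator of G-protein signalling, had 20.4 to 52.1 CPM at dusk and 0.816 to 2.84 CPM at dawn (log2 change 4.21, adjusted p = 0.0223). Noct (nocturnin), a phosphatase of nicotinamide cofactors, had 31.7 to 94.6 CPM at dusk and 3.11 to 16.6 CPM at dawn (log2 change 3.03, adjusted p = 0.00799).

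The 12 largest falls were taken with the same limit on the mean level, which leaves out Npas2 (0.93). They were led by Arntl and Tubb2a, a beta-tubulin, which had 11.5, 12.5, 10 and 7.77 CPM at dusk against 287, 146, 177 and 119 CPM at dawn (log2 change −4.05, adjusted p = 0.00251). Elovl3, a fatty acid elongase and a male-biased gene in mouse liver, had 70, 63.1, 35.9 and 42.6 CPM at dusk against 521, 755, 465 and 612 CPM at dawn. Its sides lay far apart, at 52.9 ± 16.2 CPM at dusk and 588 ± 126 CPM at dawn, with a log2 change of −3.49 (adjusted p = 0.00251). Ppp1r3c, which targets a phosphatase to glycogen, had 28.3, 32.2, 14.9 and 26.9 CPM at dusk against 335, 298, 206 and 267 CPM at dawn (log2 change −3.45, adjusted p = 0.00322). Chka, a choline kinase at the head of phosphatidylcholine synthesis, had 19.4, 20.7, 16.7 and 20.9 CPM at dusk against 111, 168, 169 and 196 CPM at dawn (log2 change −3.02, adjusted p = 0.00251). Its 4 dusk libraries were within a few CPM of each other.

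Other falls of this size were found in a nuclear receptor, in transporters and in drug metabolism. Ppard, which encodes the receptor PPAR-delta, had 5.33, 5.53, 10.2 and 7.77 CPM at dusk against 58.4, 37.8, 55.1 and 30 CPM at dawn (log2 change −2.64). Slc30a10, a manganese exporter, had 13.3 to 21.5 CPM at dusk and 77.8 to 113 CPM at dawn (log2 change −2.54). Cyp2b10, a target of the receptor CAR, had 5.21, 4.31, 8.3 and 6.13 CPM at dusk against 107, 32.5, 19.4 and 16 CPM at dawn (log2 change −2.50). The highest of its values was that of ZT20 set I. The remaining 4 were Slc34a2, a phosphate transporter (log2 change −3.61), Clic3, a chloride channel protein (−3.46), Dhrs9, a retinol dehydrogenase (−2.68), and Atp2b2, a plasma membrane calcium pump (−2.60). All 24 of these rises and falls passed without ZT20 set I, as did all 340 called genes. They also passed with a correction for GC content and length, as did 330 of the 340. Of the 8 single omissions, Gpcpd1 and Cyp2b10 passed in 2 and Nr1d1 and Dhrs9 in 3. Dbp, Ciart, Per3, Upp2, Arntl, Tubb2a, Elovl3, Ppp1r3c and Chka passed in all 8, and the rest in 5 to 7. The sign of all 24 was the same in set P alone and in set I alone. The choice of genes without overlap fixed that in advance, so it is no check.

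**Figure D2:**
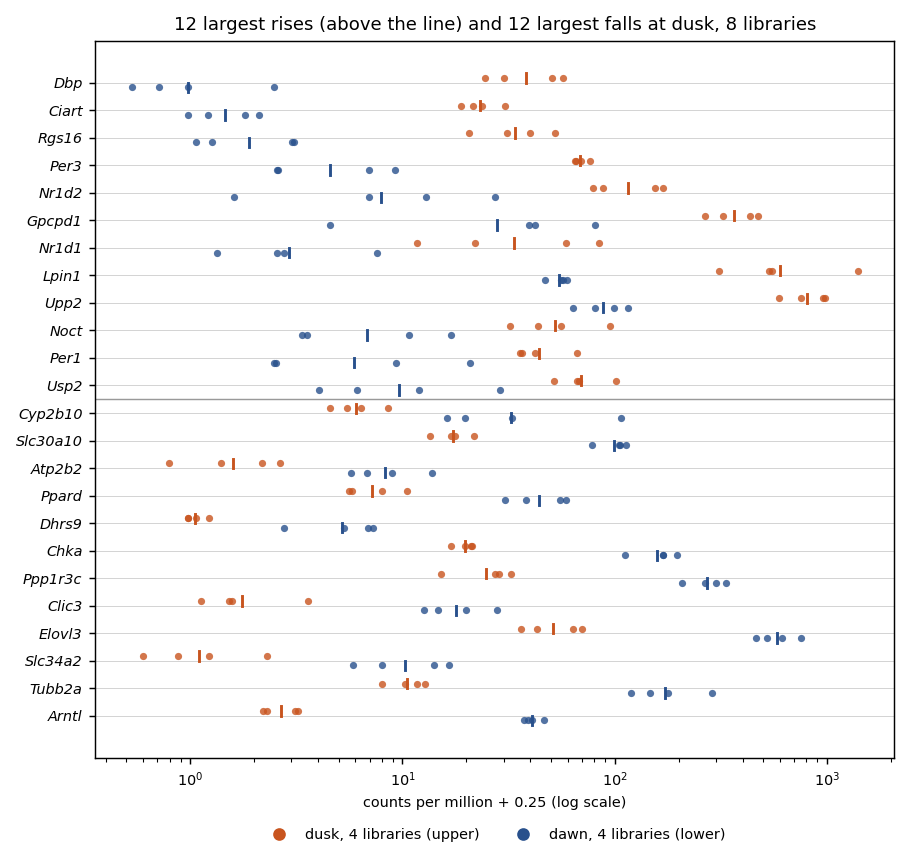
CPM plus 0.25 (log axis) in the 8 libraries for the 12 largest rises and the 12 largest falls at dusk, with the 4 dusk libraries on the upper line of each gene and the 4 dawn libraries on the lower, and a bar at the geometric mean. The dusk and dawn points do not overlap in any of the 24, which the choice of these genes required, and Tubb2a is at 7.77 to 12.5 CPM at dusk and 119 to 287 CPM at dawn.

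The libraries of ZT04 and ZT16 took no part in the comparison and place the 340 genes in the day. Their set I libraries followed GC content nearly as ZT20 set I did, with r = 0.573 at ZT04 and 0.614 at ZT16. Since the genes were chosen for a difference between dusk and dawn, a highest mean within the higher side is largely fixed by that choice. The counts are a description of the hour within a side and of the hours outside both. Of the 153 that rose, 124 (81%) had their highest mean at ZT12, 27 (17.6%) at ZT08, 1 at ZT04 and 1 at ZT16. Their lowest mean was at ZT24 for 81, at ZT20 for 45, at ZT04 for 15 and at ZT16 for 12. Of the 187 that fell, 109 (58.3%) were highest at ZT20, 48 (25.7%) at ZT24, 22 (11.8%) at ZT16 and 8 at ZT04, and 114 were lowest at ZT12, 72 at ZT08 and 1 at ZT16. In the 6 set P libraries alone, 113 of the 153 were highest at ZT12, 35 at ZT08, 2 at ZT04 and 3 at ZT16, and of the 187, 103 were highest at ZT20, 60 at ZT24, 20 at ZT16 and 4 at ZT04.

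Of 39 genes of fatty acid oxidation and targets of PPAR-alpha, 6 rose and 1 fell, where 1.07% of all genes tested rose and 1.3% fell. The median log2 change was 0.23, against 0.05 over all genes tested. The receptor itself, Ppara, had 240, 188, 229 and 224 CPM at dusk against 94.4, 106, 97.7 and 91.1 CPM at dawn (log2 change 1.19, adjusted p = 0.0189). Cpt1a, which carries fatty acids into mitochondria, had 977, 649, 1390 and 888 CPM at dusk against 290, 232, 257 and 283 CPM at dawn (log2 change 1.84, adjusted p = 0.00997). Both genes had dusk libraries that lay wholly above the dawn libraries. The thioesterase genes Acot3, Acot4 and Acot12 and the pantetheinase gene Vnn1 also rose. Acot3 and Acot4 are related thioesterase genes, between which reads could have been split. Pdk4, the kinase that blocks pyruvate oxidation, fell, with 4.98, 3.37, 7.88 and 5.1 CPM at dusk against 11.7, 21.7, 33.7 and 30.7 CPM at dawn (log2 change −2.16, adjusted p = 0.0323). Without ZT20 set I the list counted 9 rises and 3 falls, where 4.41% of all genes tested rose and 4.5% fell. Of 6 genes of ketogenesis, Slc16a1, a monocarboxylate transporter, was the 1 that fell (log2 change −0.92, adjusted p = 0.0273).

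Of 27 genes of fatty acid and triglyceride synthesis, 4 rose and 3 fell, with a median of −0.03. All genes tested had 1.07% and 1.3%. Lpin1, its relative Lpin2 (log2 change 1.59), the desaturase gene Fads2 (1.04) and Thrsp (1.46), a protein of lipogenesis, rose. Elovl3, the elongase gene Elovl1 (−0.96) and Agpat2 (−0.86), an acyltransferase of phosphatidate synthesis, fell. Thrsp overlapped between the sides, with 450, 394, 1060 and 586 CPM at dusk against 517, 366, 129 and 83.7 CPM at dawn. Both of its ZT20 libraries were near the ZT08 level, and both ZT24 libraries were low.

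None of 20 genes of bile acid synthesis and transport passed with all libraries with edgeR, 8 were at an unadjusted p under 0.05 (19.5% over all genes tested), and DESeq2 called 4 higher and 1 lower. With edgeR 4 rose and 2 fell without ZT20 set I, where 4.41% of all genes tested rose and 4.5% fell. The largest of these differences was that of Cyp7a1, the rate-limiting enzyme of bile acid synthesis, which had 642, 537, 557 and 708 CPM at dusk against 25, 147, 71.2 and 153 CPM at dawn. All dusk libraries were above all dawn libraries, the lowest value was ZT20 set I, and the log2 change was 2.89 (adjusted p = 0.0516) with it and 2.37 (adjusted p = 0.00168) without it. Among 21 transporters of drugs and metabolites, 3 rose and 1 fell, where 1.07% of all genes tested rose and 1.3% fell. The pair Abcg5 and Abcg8, which together export sterols into bile, rose by similar amounts, with 157 ± 35.2 CPM at dusk against 58.8 ± 14.1 CPM at dawn for Abcg5 (log2 change 1.43, adjusted p = 0.0184) and 218 ± 27 CPM at dusk against 90.2 ± 24.4 CPM at dawn for Abcg8 (log2 change 1.29, adjusted p = 0.0323). Slc22a5, a carnitine transporter, rose (0.94), and Slco2a1, a prostaglandin transporter, fell (−0.97).

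Carbohydrate genes included several that rose, where 1.07% of all genes tested rose and 1.3% fell. Without ZT20 set I these shares were 4.41% and 4.5%. Of 25 genes of gluconeogenesis and the fasting response, 4 rose and none fell, with a median of 0.36 (9 and 0 without ZT20 set I). The glucose transporter gene Slc2a2 had 526, 402, 420 and 472 CPM at dusk against 191, 239, 248 and 265 CPM at dawn (log2 change 0.97, adjusted p = 0.043). That call was lost with the correction for GC content and length (0.60, adjusted p = 0.151). The serine dehydratase gene Sds (1.17), the transcription factor gene Foxo3 (1.01) and the aminotransferase gene Gpt2 (0.82) also rose. Of 25 genes of glycolysis and glycogen, 2 rose and 1 fell, with a median of −0.04. Gys2, the glycogen synthase of liver, had 381, 281, 359 and 327 CPM at dusk against 159, 127, 103 and 104 CPM at dawn (log2 change 1.48, adjusted p = 0.00752). Pfkfb3, a kinase that makes the activator of phosphofructokinase, had 57.5 ± 16.2 CPM at dusk against 10.2 ± 4.87 CPM at dawn (log2 change 2.59, adjusted p = 0.00845), and the gene that fell was Ppp1r3c.

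Of 23 P450 genes of drug metabolism, 2 rose and 1 fell, with a median of −0.10. The 2 were Cyp2a4 and Cyp2a5, near-identical copies whose reads could have been split, and the 1 was Cyp2b10. Por, the electron donor of the P450 enzymes, rose as well, with 517, 479, 1490 and 952 CPM at dusk against 516, 257, 181 and 153 CPM at dawn (log2 change 1.66, adjusted p = 0.0141). Alas1, the first enzyme of heme synthesis, had 891, 624, 1870 and 911 CPM at dusk against 1290, 394, 49.7 and 41.5 CPM at dawn (log2 change 2.44, adjusted p = 0.0141). Both overlapped between the sides through ZT20 set I, and both passed without it (1.80 and 2.72). Alas1 was the 1 gene called of 14 in its list, and Por the 1 of 11. Sult1c2, a sulfotransferase, was the 1 that rose of 35 phase II enzymes (1.10). Beside all these counts, 1.07% of all genes tested rose and 1.3% fell. Among 48 genes of amino acid breakdown and the urea cycle, Sds rose, and Hal, a histidine ammonia lyase (−0.67), and the glycine cleavage genes Amt (−0.997) and Gldc (−1.15) fell.

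**Figure D3:**
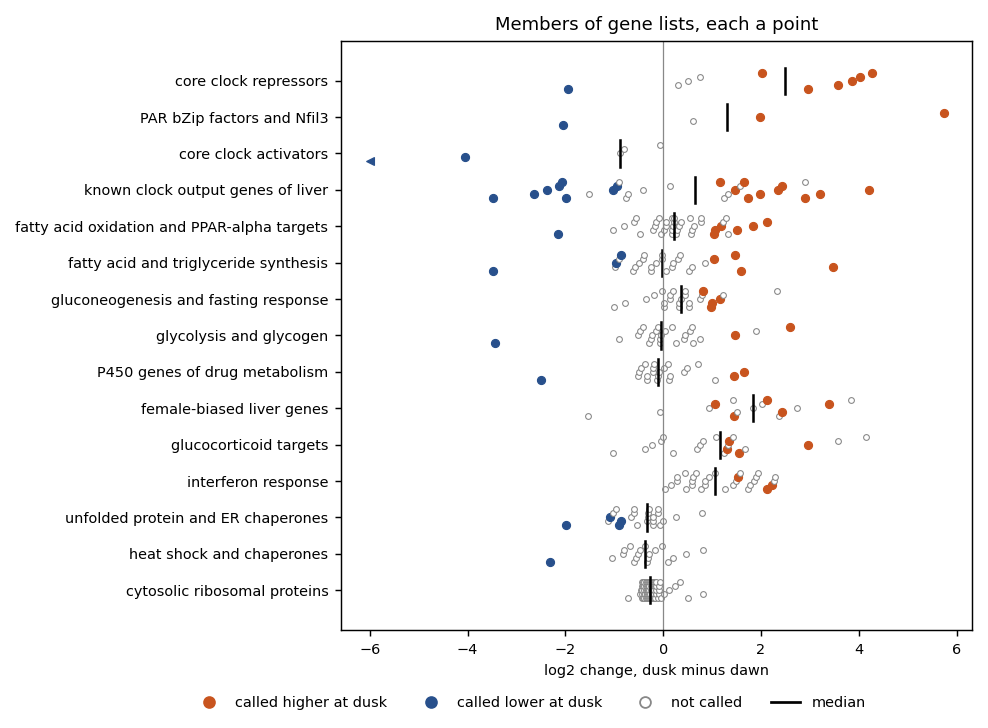
Log2 change at dusk minus dawn for every tested member of 15 gene lists, with filled points for genes called higher or lower at dusk, open points for the rest and a black bar at the list's median. Repressors of the clock have a median of 2.5 and cytosolic ribosomal proteins of −0.27, and Npas2 is drawn as an arrow at −6 because its fitted value, set against 2 reads at dusk, depends on the fit.

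Genes of protein folding had members that fell, where 1.3% of all genes tested fell and 1.07% rose. Without ZT20 set I these shares were 4.5% and 4.41%. Of 24 genes of the unfolded protein response and its chaperones, 4 fell and none rose, with a median of −0.32 (9 fell and 1 rose without ZT20 set I). They were the chaperone genes Calr, with 809, 823, 787 and 703 CPM at dusk against 2320, 1420, 1310 and 1070 CPM at dawn (log2 change −0.90, adjusted p = 0.043), and Pdia4 (−0.87), the co-chaperone gene Sdf2l1 (−1.99) and the ubiquitin ligase gene Syvn1 (−1.09). The dusk values of Calr lay close together, and its highest dawn value was ZT20 set I. Of 19 heat shock genes and chaperones, Hspb1, a small heat shock protein, was the 1 that fell, with 1.26, 1.16, 1.21 and 1.52 CPM at dusk against 15.2, 6.86, 3.93 and 4.01 CPM at dawn (log2 change −2.31, adjusted p = 0.022). Without ZT20 set I, 6 of the 19 fell. Of 23 NRF2 targets, Osgin1, an oxidative stress gene, and Gclc, the catalytic subunit of glutathione synthesis, fell. Gclc had 200, 213, 149 and 203 CPM at dusk against 351, 435, 487 and 564 CPM at dawn (log2 change −1.24, adjusted p = 0.0118), and Osgin1 had 122 to 134 CPM at dusk and 274 to 698 CPM at dawn (−1.63, adjusted p = 0.0242). Tars, the threonine member of 20 tRNA synthetases (−1.02), and Slc11a2, an iron transporter among 17 genes of iron handling (−0.998), were the 1 member called in each list.

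Of 28 cell cycle genes, 3 rose and 1 fell, with a median of 0.59, where 1.07% of all genes tested rose and 1.3% fell. Wee1, a kinase that delays mitosis and a known clock target, had 21.4, 20.8, 23.9 and 27.4 CPM at dusk against 10.4, 9.03, 5.25 and 4.9 CPM at dawn (log2 change 1.74, adjusted p = 0.00624). Cdkn1a, which encodes the inhibitor p21, fell, with 5.9, 2.56, 14.7 and 4.97 CPM at dusk against 25.9, 27.1, 29.6 and 17.7 CPM at dawn (−2.08, adjusted p = 0.0344). The cyclin genes Ccne1 (2.24) and Ccnd1 (1.16) rose, Ccne1 at levels of a few CPM. Of 31 genes of autophagy and lysosomes, 3 rose, the mitophagy receptor gene Bnip3 (1.02), Wipi1 (0.96), a protein of autophagosome formation, and the transcription factor gene Cebpb (1.35). With the correction for GC content and length Bnip3 did not pass (0.76, adjusted p = 0.115).

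A group of genes was high at ZT12 and not at ZT08. Cux2, a female-biased transcription factor gene of mouse liver, had 0.802 and 0.465 CPM at ZT08 and 43.2 and 12.3 CPM at ZT12, against 0.37, 0.301, 0.51 and 0.334 CPM at dawn (log2 change 3.39, adjusted p = 0.0142). Cyp17a1, a steroid hydroxylase, had 21.4 and 13.7 CPM at ZT08 and 237 and 74.6 CPM at ZT12, against 21.9, 8.54, 7.6 and 4.57 CPM at dawn (2.44, adjusted p = 0.00886). Acot3 had 2.23 and 1.92 CPM at ZT08 and 97.3 and 35.5 CPM at ZT12, against 5.85, 2.47, 1.53 and 1.84 CPM at dawn (2.13, adjusted p = 0.0359). In all of these both ZT12 libraries were far above the other 6 of the dusk and dawn hours, set I above set P. Outside these hours Cyp17a1 had 118 and 30.7 CPM at ZT04 and 11.7 and 15.1 CPM at ZT16. Its ZT04 set I library was thus above ZT12 set P. The log2 differences between ZT12 and ZT08 were 5.29, 2.97 and 4.86, and none of these passed the test between those hours. Of 24 female-biased genes listed, 15 had enough counts to be tested. Of these 15, 5 rose and none fell, with a median of 1.85, the 5 being Cux2, Cyp2a4, Acot4, Acot3 and Cyp17a1. Without ZT20 set I, 8 of 18 rose, with a median of 1.29, where 4.41% of all genes tested rose. The filter on counts admits a gene through the libraries of 1 hour alone, so genes high at 1 hour could enter by that hour. The share that rose and the median are therefore a description only. The summed level of the 15 was 523, 269, 1870 and 814 CPM at dusk against 405, 202, 269 and 164 CPM at dawn. Of 24 male-biased genes, Elovl3 was the 1 that fell and none rose. Beside both lists, 1.07% of all genes tested rose and 1.3% fell. Xist, the transcript of the inactive X chromosome, was at 0.121 to 0.687 CPM in these 8 libraries. The Y-linked genes Ddx3y, Eif2s3y and Uty were lower in every wild-type set I library than in any set P library. Kdm5d, also Y-linked, had 18.6 CPM in ZT24 set I, above set P at ZT12, ZT16 and ZT20 (18, 16.4 and 17.8 CPM). The sum of Ddx3y, Eif2s3y, Kdm5d and Uty was 28.6, 96.3, 102, 28.1, 12.4 and 141 CPM in set I from ZT04 to ZT24. In the 6 libraries of set P it was 171 to 202 CPM. Within set I the sum was lower where the GC trend was stronger, with r = 0.573, 0.183, 0.161, 0.614, 0.658 and 0.0165 in that order. All 12 wild-type libraries thus held Y-linked reads, and Xist was at most 1.34 CPM in them. The part of these values in the result was not tested.

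Of 20 glucocorticoid targets, 4 rose and none fell, with a median of 1.16 (7 and 1 without ZT20 set I). The shares over all genes tested were 1.07% and 1.3%, and without ZT20 set I they were 4.41% and 4.5%. Fkbp5, a chaperone of the receptor and one of its common targets, had 80.3 and 66.8 CPM at ZT08 and 337 and 154 CPM at ZT12, against 84, 37.7, 38.5 and 33.3 CPM at dawn (log2 change 1.54, adjusted p = 0.0261). Its ZT08 libraries lay near the highest dawn library and its ZT12 libraries above. Errfi1, a feedback inhibitor of the EGF receptor, had 1330 ± 401 CPM at dusk against 547 ± 169 CPM at dawn (1.31), and Cebpb 26.5 ± 13.1 CPM at dusk against 10.3 ± 3.99 CPM at dawn (1.35). Per1 was the fourth. The list's sum was 2770, 3220, 6180 and 4070 CPM at dusk against 3430, 2800, 1850 and 2040 CPM at dawn.

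Of 29 genes of the interferon response, 3 rose and none fell, with a median of 1.06 (14 and 0 without ZT20 set I). All genes tested had 1.07% and 1.3%, and 4.41% and 4.5% without ZT20 set I. All 29 log2 changes were above 0, between 0.04 for Irf1, an interferon regulatory factor, and 2.29 for Ifi44, an interferon-induced gene. In 13 of the 29 every dusk library was above every dawn library, against 5.78% of all genes tested. Usp18, which removes ISG15 from proteins, had 38.1, 19.7, 106 and 38.5 CPM at dusk against 9.18, 7.46, 11.1 and 9.03 CPM at dawn (log2 change 2.22, adjusted p = 0.0181). Irf7, a transcription factor of the response, had 88.1, 44.9, 233 and 81.4 CPM at dusk against 25.6, 22.9, 16.8 and 22 CPM at dawn (2.13, adjusted p = 0.0415). Isg15, a ubiquitin-like protein, had 18.2, 11.2, 68.6 and 24.1 CPM at dusk against 10.5, 6.68, 9.74 and 7.91 CPM at dawn (1.52, adjusted p = 0.0335). In each of the 3 the highest library was ZT12 set I, and every dusk library was above every dawn library. Oasl2, another antiviral gene of the list, had 17.4, 9.02, 50.1 and 17.7 CPM at dusk against 4.5, 5.54, 5.15 and 6.52 CPM at dawn, and its 1.87 missed the threshold (adjusted p = 0.0684). The 14 Kupffer cell and macrophage markers, none of them at 0 in any library, summed to 1020 to 1360 CPM at dusk against 876 to 976 CPM at dawn. None was called with edgeR (median 0.30), 6 were at an unadjusted p under 0.05 (19.5% over all genes tested) and DESeq2 called 2 higher. With edgeR 2 rose without ZT20 set I, and their part in the interferon result was not tested.

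**Figure D4:**
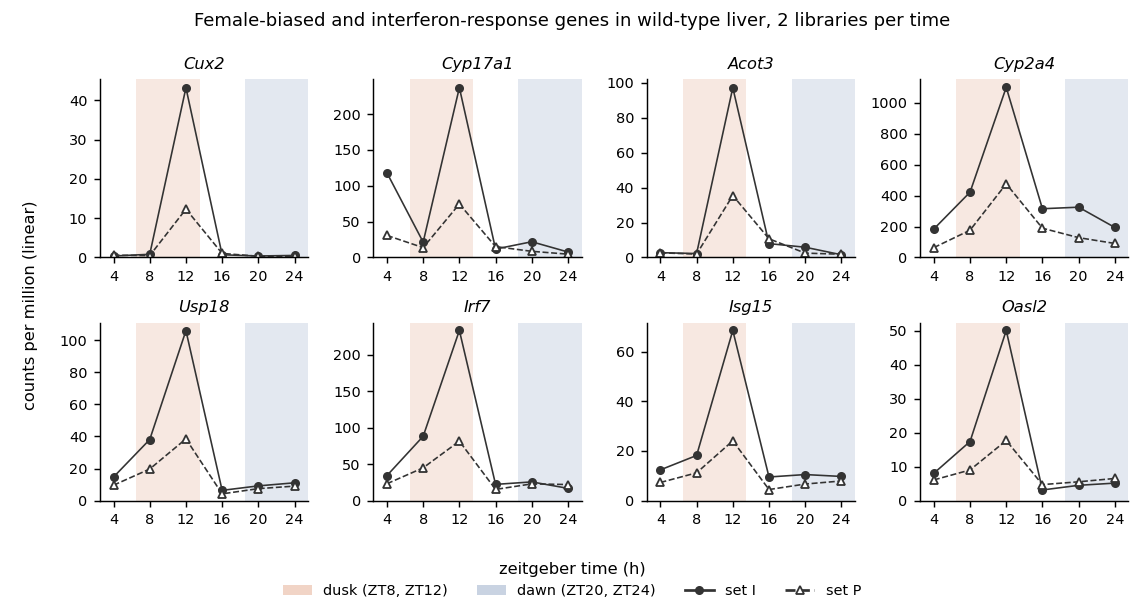
CPM (linear axis from 0) of 4 female-biased genes in the upper row and 4 interferon-response genes in the lower, over the 6 zeitgeber times in wild-type liver, drawn as in the plot of clock genes. Set I at ZT12 is the highest library of all 8 panels' dusk and dawn hours, for example 237 CPM for Cyp17a1 against 74.6 CPM in set P, and 233 CPM for Irf7 against 81.4 CPM in set P.

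Between the dusk hours themselves, ZT12 minus ZT08, no gene of 14366 (0%) passed with edgeR, 929 were at an unadjusted p under 0.05, and DESeq2 called 94 higher and 27 lower. Between the dawn hours, ZT24 minus ZT20, no gene (0%) passed with edgeR, 2464 were at an unadjusted p under 0.05, and DESeq2 called 15 higher and 48 lower. The edgeR counts were 120 and 47 for ZT12 minus ZT08 without ZT20 set I and 130 and 42 without ZT20 set P, and for ZT24 minus ZT20 they were 1 and 3 without ZT20 set I and 3702 and 3577 without ZT20 set P.

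Markers of cell types other than the hepatocyte rarely passed, where 1.07% of all genes tested rose and 1.3% fell. Neutrophil markers, 6 of 10 tested and 4 of the 10 at 0 in some library, summed to 6.67 to 75.8 CPM at dusk and 7.58 to 12.1 CPM at dawn, the high value being ZT08 set P. None of them was called, by edgeR or by DESeq2, or at an unadjusted p under 0.05. The 8 erythroid markers summed to 161 to 224 CPM at dusk against 243 to 339 CPM at dawn, and of the 6 tested none was called with edgeR (median −0.61), with 3 at an unadjusted p under 0.05 (19.5% over all genes tested) and 1 lower with DESeq2. Endothelial, B cell and T cell markers had no call by either tool, with 2 of each at an unadjusted p under 0.05. Among 14 stellate cell markers the receptor gene Ngfr fell (−1.56, adjusted p = 0.0123), and among the cholangiocyte markers Sox9, a transcription factor gene of bile ducts, fell (−1.92, adjusted p = 0.0389). Cholangiocyte markers summed to 38 to 79.1 CPM at dusk against 47.9 to 71.8 CPM at dawn. Of 16 pancreatic acinar markers 12 were at 0 in all 8 libraries, as were 4 of 8 adipocyte and 3 of 10 skeletal muscle markers. Of 12 pericentral hepatocyte markers the glutamate transporter gene Slc1a2 rose (0.96) and the amino acid transporter gene Slc1a4 fell (−1.64). The call of Slc1a2 was lost with the correction for GC content and length (0.66, adjusted p = 0.138). Of 12 periportal markers Sds rose, and Hal and the cadherin gene Cdh1 (−0.87) fell.

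Large sets of housekeeping genes held no call with edgeR. Over all genes tested edgeR called 1.07% higher and 1.3% lower, and DESeq2 3.49% and 3.4%. A list of few genes without a call is near these shares and is no result about the list. None of 82 cytosolic ribosomal protein genes, 74 nuclear genes of the respiratory chain, 75 mitochondrial ribosomal protein genes, 41 proteasome subunits, 47 genes of ribosome biogenesis and 32 splicing factors passed. At an unadjusted p under 0.05 were 9, 2, 11, 10, 4 and 5 of them in that order, against 19.5% of all genes tested, and DESeq2 called none, none, 2, 3, 2 and 2. The ribosomal protein genes had a median of −0.27, with sums of 9520 to 10200 CPM at dusk against 10400 to 16800 CPM at dawn, the highest being ZT20 set I, and a median of −0.12 without that library. Plasma protein genes also stayed without a call, with none of 32 for coagulation and complement, 21 for albumin and apolipoproteins and 31 for the acute phase, with 0, 0 and 11 at an unadjusted p under 0.05, where all genes tested had 19.5%. Without ZT20 set I, 6 acute phase genes rose, where 4.41% of all genes tested rose, and DESeq2 called 6 higher with all libraries. There was no call with edgeR in the lists of 10 polyamine genes, 23 immediate early genes, 5 cold-inducible RNA-binding genes, 18 amino acid stress genes, 32 translation factors and 10 genes of the mitochondrial genome either. In that order 3, 8, 3, 6, 3 and 0 were at an unadjusted p under 0.05, beside 19.5% of all genes tested, and DESeq2 called none, 3, 1, 3, none and none.

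The dusk to dawn difference was then set beside that of knockout liver at the same hours. In the knockout 372 genes of 14884 rose at dusk (2.5%) and 467 fell (3.14%). Of the 153 that rose in wild type, 98 also rose in the knockout (64.1% of the 153, 26.3% of the 372), and of the 187 that fell, 160 also fell (85.6% of the 187, 34.3% of the 467). The sign was the same for 145 of 153 and 183 of 187. Over the 153, the median log2 change was 0.88 in the knockout and 1.43 in wild type, and over the 187 it was −0.96 in the knockout and −1.28 in wild type. Because these genes were chosen for passing in wild type, their larger medians there are a description and no test of a difference.

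The difference between the genotypes' changes was tested gene by gene, and 2 of 14884 passed (0.0134%), both lower in the knockout, while 1659 were at an unadjusted p under 0.05. Both passed in all 16 fits that left out 1 library, at −3.89 to −3.48 for Cyp17a1 and −2.26 to −1.99 for Gm2788 (adjusted p up to 0.0289 for each), and neither passed without the set block (adjusted p = 0.0965 and 0.0955). The count of genes was 9 higher and 17 lower without wild-type ZT20 set I, 1496 and 3169 without wild-type ZT20 set P, and 5 and 10 without wild-type ZT12 set P. It was 0 and 3 without wild-type ZT12 set I, 1 and 2 without knockout ZT20 set P, and 2 and 2 without knockout ZT24 set P. Cyp17a1 had 4.1, 5.89, 16.1 and 17.1 CPM at dusk and 35.3, 27, 11.9 and 19.4 CPM at dawn in knockout liver, where it fell at dusk (log2 change −1.28, adjusted p = 0.00841), against 21.4, 13.7, 237 and 74.6 CPM at dusk and 21.9, 8.54, 7.6 and 4.57 CPM at dawn in wild type, where it rose. The knockout change minus the wild-type change was −3.71 (SE 0.305, edgeR adjusted p = 0.00322). The other gene was Gm2788, a processed transcript with no assigned role, named after its values were seen. It lies on chromosome 7 (chr7:48877958-48913040), as does Dbp, which is deleted in the knockout. The window before the start of Dbp is chr7:45704997-45705246. The part of this position in the difference was not tested. Gm2788 had 5.12, 4.52, 5.63 and 4.78 CPM at dusk and 20.2, 16.2, 24.6 and 21.8 CPM at dawn in knockout liver, against 23.6, 20, 54.1 and 28.1 CPM at dusk and 39.4, 27, 26.8 and 19.8 CPM at dawn in wild type. The difference was −2.14 (adjusted p = 0.00322), and in wild type alone the gene did not pass. All 4 knockout dusk libraries were below every other library of either genotype.

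The clock genes Arntl, Per3 and Nr1d1 had log2 changes of −4.70, 3.80 and 3.08 in the knockout, against −4.06, 4.02 and 3.58 in wild type, and none of these differences passed the test between genotypes (adjusted p = 0.259, 0.682 and 0.725). Cyp7a1 had log2 changes of 0.69 in the knockout and 2.89 in wild type, a difference of −2.20 that did not pass (adjusted p = 0.262). Kifc1, a kinesin gene of mitosis measured near 1 CPM, had a difference of −3.94 (adjusted p = 0.0786), and Cyp26c1, a retinoic acid hydroxylase, one of 3.61 (adjusted p = 0.122).

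**Figure D5:**
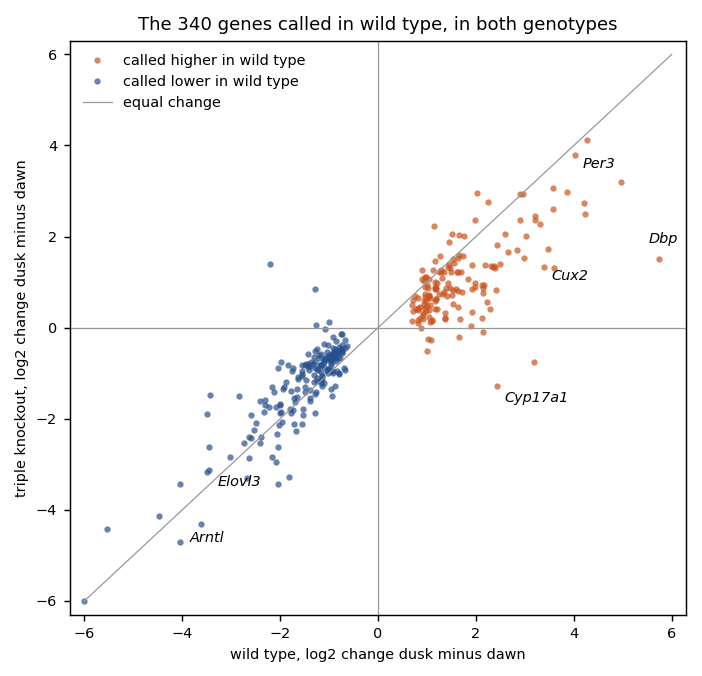
Log2 change at dusk minus dawn of the 340 genes called in wild type, in knockout liver (vertical axis) and wild-type liver (horizontal axis), 1 point per gene, with the diagonal of equal change. Of the genes that rose in wild type 145 of 153 lie above 0 in the knockout, Cyp17a1 lies at −1.28, and values under −6 (Npas2) are drawn at −6. Dbp is deleted in the knockout, where it was at 0 to 0.114 CPM, so its vertical position rests on next to no reads.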

How the data were processed

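Per the labels' protocols, liver was lysed in guanidinium thiocyanate and mRNA libraries came from the TruSeq Stranded kit. The deposited table holds the authors' raw counts of reads for each Ensembl gene in 24 libraries. The submitters' processing notes list STAR 2.4.0i and mm10. The sources used here do not give the counting tool, annotation or strand setting, so reads of overlapping, antisense or near-identical genes could have been split. GENCODE M21 of the same build gave symbols for 54495 of 54532 genes, and GC content and length for 99.94% of those tested.

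Counts were tested with edgeR 4.0.16 (R 4.3.3, TMM, filterByExpr at 10 counts, quasi-likelihood F-test, Benjamini-Hochberg, adjusted p under 0.05). The fit of 8 libraries held 4 time means and the set letter as a block, and dusk minus dawn was (ZT08 + ZT12)/2 minus (ZT20 + ZT24)/2. Deviations of same-letter libraries from their group means correlated at r = 0.365 to 0.619 over 6 pairs of times, above the limit of 0.1, so the letters were taken as pairs. Genotypes were compared by an interaction in 16 libraries with a set block in each genotype. CPM use TMM over all 24 libraries. The procedure was tested on simulated data. DESeq2 1.42.0, other normalizations, filters, fits, a spline correction for GC content and length, and omission of each library were the alternatives, and 3 of them were chosen after seeing the data. Members and lists were chosen with earlier results of these data known, so no list is independent support. Besides the clock genes, the text names the 12 largest rises and the 12 largest falls without overlap and a mean log2 CPM of at least 1, up to 4 members per list by p, and interaction genes by p. Gene model names were passed over, and members named to complete a count of 5 or fewer were chosen after their values were seen. A few genes within this rule are not reported here.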

Additional observations from a re-analysis of the deposited data

Results flagged for a closer look

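In 80 sets of 4 wild-type libraries of one side, 1 library stood apart from the other 3 by Dixon's criterion, where chance alone marks about 1 in 20. It was Npas2 at ZT08 set I, at 0.115 CPM from 2 reads, with the other 3 dusk libraries at 0. The dusk to dawn difference of 2 genes differed between genotypes by the test of that difference (edgeR). For Cyp17a1 the knockout change minus the wild-type change was −3.71, with a fall at dusk in the knockout and a rise in wild type, and for Gm2788 it was −2.14, with higher dawn than dusk values in the 8 knockout libraries.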

How the results depend on the processing

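The number of genes called moved with the processing. Against 153 rises and 187 falls, the counts were 88 and 144 with 1 mean per side, 545 and 519 with 12 wild-type libraries, 1349 and 1329 with 24 libraries, 502 and 489 with DESeq2, 403 and 333 with no filter, and 494 and 430 with the paired block and a GC and length correction. Without the block of paired letters they were 70 and 91, and all 161 were among the 340. Set I alone gave 0 and 0 (687 at an unadjusted p under 0.05, no other tool run), set P alone 172 and 212, and omission of both ZT20 libraries, chosen after seeing the data, 768 and 776. Omission of single libraries gave 9 to 3401 rises and 8 to 2219 falls. For ZT12 minus ZT08 these omissions gave 0 to 130 rises and 0 to 47 falls, DESeq2 94 and 27, no filter 51 and 11, and the GC correction 5 and 1. For ZT24 minus ZT20 they gave 0 to 3702 rises and 0 to 3577 falls, DESeq2 15 and 48, no filter 1 and 13, and the GC correction 0 and 1. For the difference between genotypes no filter gave 19 and 40, the GC correction 0 and 3, the fit without the block 0 and 0, and omission of single libraries, added after seeing the data, 0 to 1496 and 2 to 3169. Rora turned to 0.86 without ZT20 set P, against −0.08 with all libraries and −0.60 without ZT20 set I. The causes were not tested. Among the 93 called genes named by rule, none of 1854 values under these alternatives changed sign, 1270 stayed past the threshold and 584 did not. These genes were called on the same libraries, so the kept sign is no independent support.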
